A study of Mus musculus with 38 samples.

Results

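Ptch1, Igf1r, Ric1, Wdr89 and Rps19bp1 are 5 of the 29564 genes listed in the RNA-seq tables of the mouse left ventricle (LV), and 5 of the 13765 genes that passed a filter on low counts. They were chosen by the difference in their read counts between HFpEF hearts treated with TYA-018 and HFpEF hearts treated with empagliflozin, so that difference is given below as a description. In the order of p of that comparison Ptch1 took place 2, Igf1r 4, Wdr89 5, Rps19bp1 12 and Ric1 39. The name of the set, genes that differ most between the drugs, therefore holds only in part. Ano4, of the anoctamin family of channels and lipid scramblases, was in place 1 (log2 fold change 0.86), Wfdc1 in place 3 (0.43) and Efr3b in place 6 (-0.99), and none of these belongs to the set. At the lower end, Ap5s1 in place 38 (0.19), Ric1 in place 39 (-0.29) and Pkp4 in place 40 (-0.42) had the same adjusted p of 0.0980.

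The study asked how an inhibitor of HDAC6, the cytoplasmic deacetylase of tubulin, compares with an inhibitor of the glucose transporter SGLT2 in heart failure with preserved ejection fraction (HFpEF). All mice were C57BL6 with a wild-type background, and each of the 38 libraries came from the left ventricle of 1 mouse. The non_failing group (n = 8) served as control without the disease model. The other groups had HFpEF induced by a high-fat diet with L-NAME, a blocker of nitric oxide synthases, and then received vehicle (HFpEF+Veh, n = 8), TYA-018 (HFpEF+TYA-018, n = 11) or empagliflozin (HFpEF+SGLT2i, n = 11) by mouth once daily. Diet and L-NAME were always given together, so their parts cannot be told apart. The title of the series gives 3 months of treatment and the methods a shorter time. The labels call the mice female and the methods male, and the Y-linked genes Ddx3y, Kdm5d, Uty and Eif2s3y were above 1 CPM (counts scaled to a library total of 1000000) in 38 of 38 libraries.

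Ptch1 encodes the receptor that binds Hedgehog ligands and, without ligand, restrains Smo, and it is itself a target gene of the pathway. Igf1r encodes the receptor tyrosine kinase for the insulin-like growth factors Igf1 and Igf2, which drives growth of cardiomyocytes. Ric1 forms with Rgp1 the exchange factor that activates the small GTPase Rab6 at the Golgi. Rps19bp1, also called AROS, is a nucleolar protein that binds the ribosomal protein Rps19 and the deacetylase Sirt1, and belongs to the machinery that builds the small ribosomal subunit. Wdr89 encodes a WD40 repeat protein of little known function.

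In the GENCODE annotation of GRCm38, the 5 protein-coding genes lie on 5 chromosomes. Ptch1 lies at chr13:63508328-63573598 on the minus strand and Igf1r at chr7:67952827-68233668 on the plus strand. Ric1 lies at chr19:29522282-29606829 on the plus strand, and its start overlaps the antisense gene A930007I19Rik by 878 bases. The strand setting of the counting is not given in the sources used here, so reads of that stretch could belong to either gene. Wdr89 lies at chr12:75630596-75669537 and Rps19bp1 at chr15:80260615-80264315, both on the minus strand.

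The promoters of the 3 genes that were lower with TYA-018 are shown because these genes also varied together over the libraries, as given below. Each holds 250 bases before and 50 bases after the RefSeq start on GRCm38.p6, read 5′ to 3′ on the strand of the gene, and capitals mark the GC box GGGCGG or its reverse complement CCGCCC. They lie at chr13:63565686-63565985 (Ptch1, minus), chr7:67952007-67952306 (Igf1r, plus) and chr19:29522032-29522331 (Ric1, plus). The RefSeq start of Ptch1 lies inside the GENCODE gene and that of Igf1r lies upstream of it.
Ptch1: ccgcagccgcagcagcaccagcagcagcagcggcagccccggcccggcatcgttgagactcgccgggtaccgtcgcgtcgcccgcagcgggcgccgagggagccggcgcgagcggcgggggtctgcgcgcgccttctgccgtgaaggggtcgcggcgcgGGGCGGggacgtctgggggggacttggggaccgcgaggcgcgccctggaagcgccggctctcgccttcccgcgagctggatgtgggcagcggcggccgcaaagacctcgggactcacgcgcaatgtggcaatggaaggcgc
Igf1r: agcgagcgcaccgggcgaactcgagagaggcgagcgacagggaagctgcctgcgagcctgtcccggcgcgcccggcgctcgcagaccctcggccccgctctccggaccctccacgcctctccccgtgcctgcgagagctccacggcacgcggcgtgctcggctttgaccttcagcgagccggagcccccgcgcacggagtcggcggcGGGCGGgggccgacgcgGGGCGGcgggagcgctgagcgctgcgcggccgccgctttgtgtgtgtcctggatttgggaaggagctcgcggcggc
Ric1: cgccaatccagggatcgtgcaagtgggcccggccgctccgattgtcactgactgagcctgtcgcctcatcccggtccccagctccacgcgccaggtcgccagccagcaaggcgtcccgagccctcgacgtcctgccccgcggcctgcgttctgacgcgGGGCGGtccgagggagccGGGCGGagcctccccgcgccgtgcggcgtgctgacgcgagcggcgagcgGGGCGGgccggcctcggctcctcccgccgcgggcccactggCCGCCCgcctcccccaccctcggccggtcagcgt
All 3 windows were rich in G and C, with 76.3% in Ptch1, 76.0% in Igf1r and 77.3% in Ric1 against a median of 52.7% over 32851 promoters. The windows of Wdr89 (59.7%) and Rps19bp1 (61.0%) were closer to that median. The GC box occurred 1 time in Ptch1, 2 times in Igf1r, 4 times in Ric1, 1 time in Wdr89 and 3 times in Rps19bp1, counting both strands, and 35.7% of all promoters held at least 1. The letters CCAAT, searched on both strands, occurred 1 time in Ric1 and 3 times in Wdr89, and in 37.4% of all promoters. The Gli motif GACCACCCA, searched on both strands, was in none of the 5 windows and in 0.253% of all promoters.

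Depth was 33.0 ± 9.19 M estimated counts per library (SD, n = 38, with M for 1000000), from 21.5 to 59.3 M. Cardiomyocyte markers were high in all groups, with medians of their summed level between 27521 and 32553 CPM. A pair of HFpEF+Veh libraries stood apart. V2523 held liver transcripts, with 7 hepatocyte markers summing to 1638 CPM against a median of 6.57 CPM in its group. V2532 was deep (57.7 M) and had the highest level of fast skeletal muscle markers, at 162 CPM. The hepatocyte markers also reached 29.4 to 408 CPM in the non_failing group but stayed at or below 15.6 CPM with either drug. The part of these transcripts in the results was not tested, and values without both libraries are given for some results only. In bulk tissue, fewer cells of a type and less RNA per cell cannot be told apart.

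**Figure D1:**
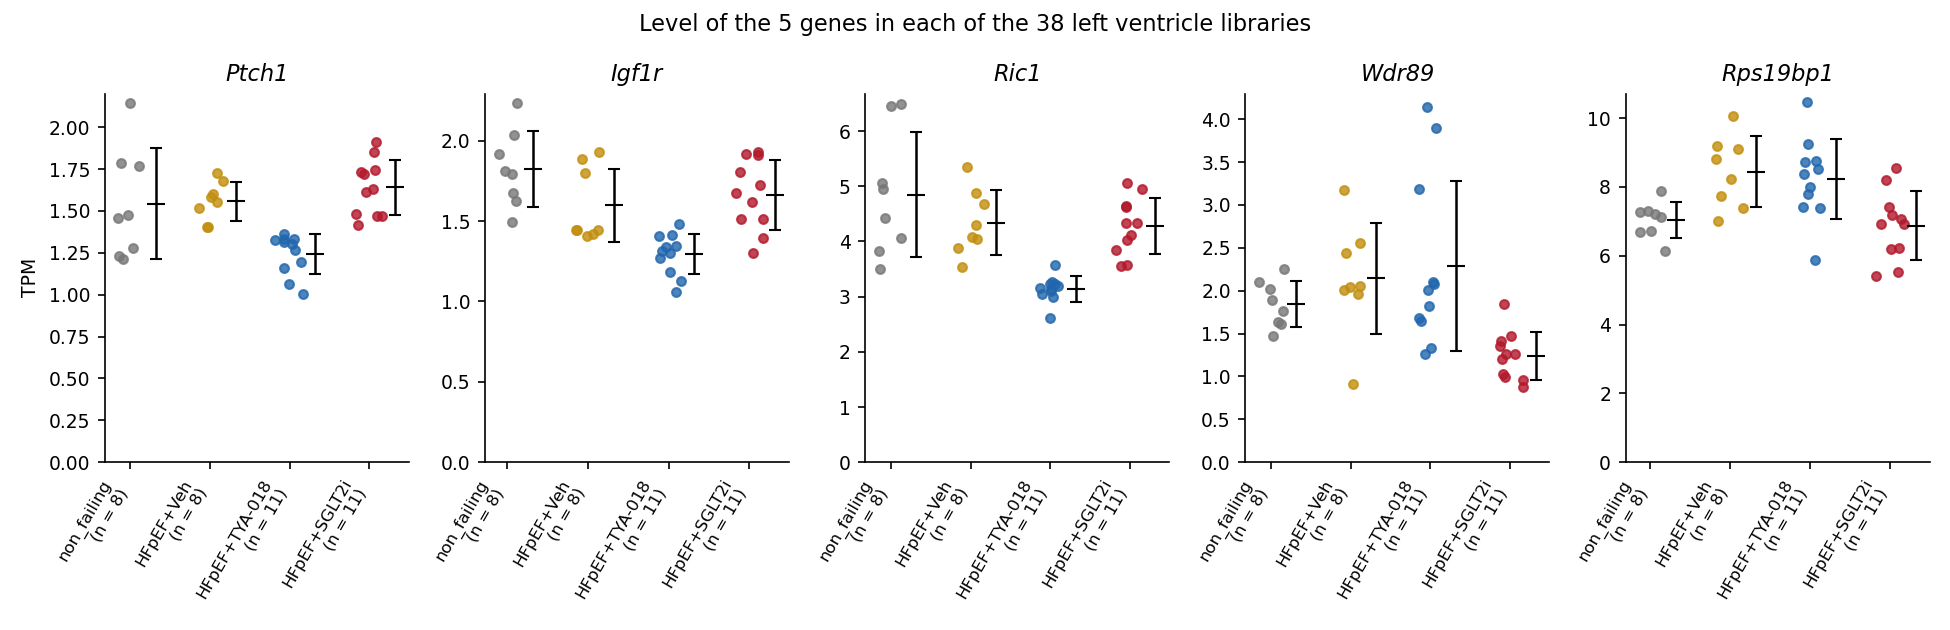
Level of each gene in TPM (transcripts per 1000000 transcripts, vertical axis from 0) in each library, by group, with points for single mice and bars for the mean ± SD. Ptch1, Igf1r and Ric1 were lowest in HFpEF+TYA-018, Wdr89 was lowest in HFpEF+SGLT2i, and Rps19bp1 had similar means in HFpEF+Veh (8.44) and HFpEF+TYA-018 (8.23).

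Ptch1 was lowest in the TYA-018 group, and in TPM its libraries did not overlap those of vehicle or empagliflozin. Levels here are in TPM, which corrects for gene length. Its level ran from 1.00 to 1.36 (median 1.30) with TYA-018 and from 1.42 to 1.91 (median 1.63) with empagliflozin. In HFpEF+Veh it ran from 1.40 to 1.73 (median 1.57) and in non_failing from 1.22 to 2.14 (median 1.47). All 11 TYA-018 libraries were thus below every empagliflozin and every vehicle library, while the wide non_failing range overlapped all other groups. In TPM, 1 of the 13765 genes (0.00726%) was wholly lower with TYA-018 than with empagliflozin, namely Ptch1, and 13 (0.0944%) were wholly lower with TYA-018 than with vehicle. The separation depended on the unit. In CPM with the scaling of the fit (TMM), 9 of 11 TYA-018 libraries were below every empagliflozin library and 6 of 11 below every vehicle library, although all 11 were below both group means. The fitted log2 fold change was -0.32 (SE 0.07) against empagliflozin and -0.21 (SE 0.07) against vehicle, while empagliflozin differed from vehicle by 0.11 (SE 0.07).

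Igf1r, the growth factor receptor, was lower in both HFpEF+Veh and HFpEF+TYA-018 than in non_failing hearts. Its level ran from 1.49 to 2.23 TPM (median 1.80) in non_failing and from 1.41 to 1.93 (median 1.45) in HFpEF+Veh. It ran from 1.06 to 1.48 (median 1.31) with TYA-018 and from 1.30 to 1.93 (median 1.67) with empagliflozin. Of the vehicle libraries 5 lay below every non_failing library and 3 lay inside the non_failing range. All 11 TYA-018 libraries were below every non_failing library, a pattern shared by 79 genes (0.574%), and 9 were below every vehicle library. In CPM scaled by TMM all 11 were again below every non_failing library, but only 3 were below every vehicle library. Against empagliflozin the log2 fold change was -0.31 (SE 0.06), with 5 of the 11 TYA-018 libraries below every empagliflozin library in TPM and 4 in CPM. From vehicle, TYA-018 differed by -0.19 and empagliflozin by 0.12.

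Ric1 had the highest level of the 3 genes that were lower with TYA-018. Its level ran from 2.62 to 3.58 TPM (median 3.16) with TYA-018, from 3.55 to 5.06 (median 4.34) with empagliflozin, from 3.54 to 5.35 (median 4.19) with vehicle and from 3.51 to 6.49 (median 4.68) in non_failing. Of the 11 TYA-018 libraries, 10 lay below every library of the other groups in TPM, and the exception was V2546 at 3.58 TPM. In CPM scaled by TMM, 9 were below every empagliflozin library, 9 below every non_failing library and 6 below every vehicle library. The log2 fold change was -0.29 (SE 0.07) against empagliflozin and -0.26 (SE 0.08) against vehicle, and empagliflozin differed from vehicle by 0.03 (SE 0.08).

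Wdr89 showed the opposite order, with the low group being empagliflozin. Its level ran from 0.876 to 1.85 TPM (median 1.26) with empagliflozin and from 1.26 to 4.14 (median 2.01) with TYA-018. In HFpEF+Veh it ran from 0.907 to 3.17 (median 2.05) and in non_failing from 1.47 to 2.25 (median 1.83). The groups overlapped, with 9 of 11 empagliflozin libraries below every non_failing library but only 1 below every vehicle library, since V2532 was at 0.907 TPM. The TYA-018 group was the most variable, at a coefficient of variation of 43.6%, and 3 of its libraries (V2550 at 4.14, V2551 at 3.89 and V2552 at 3.19 TPM) were above all libraries of the other groups. The log2 fold change between TYA-018 and empagliflozin was 0.90 (SE 0.19), or 0.76 without V2550. Against vehicle it was -0.72 (SE 0.20) with empagliflozin and 0.19 (SE 0.20) with TYA-018. Without V2523 and V2532 these differences were -0.87 and 0.04. HFpEF+Veh then differed from non_failing by 0.30, in place of 0.14 with all libraries. Wdr89 was also lower in deeper libraries, with a Pearson r of -0.50 between its log2 CPM and log2 total counts over 38 libraries and -0.56 after removal of the group means. The other 4 genes had r between -0.10 and 0.01, and between -0.22 and -0.01 within groups. With depth as a covariate, the difference between the drugs was 0.82 (SE 0.16).

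Rps19bp1 had the highest level of the 5 genes. Its level ran from 5.89 to 10.5 TPM (median 8.38) with TYA-018 and from 5.41 to 8.55 (median 6.93) with empagliflozin. In HFpEF+Veh it ran from 7.02 to 10.1 (median 8.52) and in non_failing from 6.14 to 7.88 (median 7.16). All groups overlapped, and HFpEF+Veh and HFpEF+TYA-018 lay above the others by their medians. In TPM, 6 of 11 empagliflozin libraries were below every vehicle library, and 7 of 11 TYA-018 libraries were above every non_failing library. In CPM scaled by TMM these counts were 3 and 10. Above every empagliflozin library were 4 of 11 TYA-018 libraries in TPM and 10 in CPM scaled by TMM. The log2 fold change was 0.35 (SE 0.08) between the drugs, 0.14 (SE 0.08) between TYA-018 and vehicle and -0.21 (SE 0.08) between empagliflozin and vehicle. The sign of the TYA-018 difference from vehicle depended on the unit, being -0.026 in log2(TPM + 1).

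**Figure D2:**
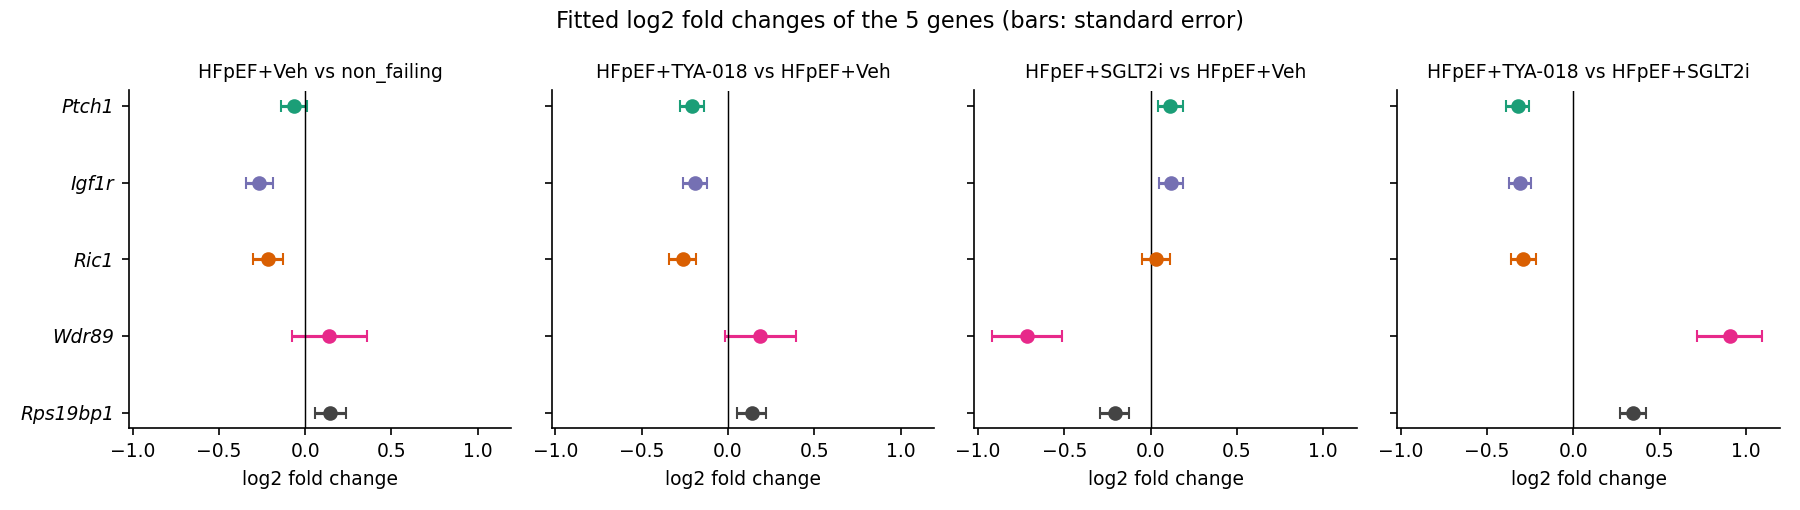
Log2 fold change of each gene (horizontal axis) fitted by edgeR in each comparison, with bars for the standard error. In HFpEF+TYA-018 against HFpEF+SGLT2i, Ptch1 (-0.32), Igf1r (-0.31) and Ric1 (-0.29) were below 0 and Rps19bp1 (0.35) and Wdr89 (0.90) above it.

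The edgeR fit took its estimate of the spread from all 38 libraries, including those that chose the genes. Only the comparison of HFpEF+Veh with non_failing had none of the latter in either group. There, Igf1r fell to 0.832 of the non_failing level (log2 difference -0.26 ± 0.08 SE), which passed the edgeR test with an adjusted p of 0.0430, and the vehicle libraries below the non_failing mean were 6 of 8 in TPM and 7 of 8 in CPM scaled by TMM. It was 1 of the 5 genes to pass, where 433 of all tested genes (3.15%) did. Ptch1 (-0.06, SE 0.08), Ric1 (-0.22, SE 0.08), Wdr89 (0.14, SE 0.22) and Rps19bp1 (0.15, SE 0.09) did not pass, with adjusted p of 0.184 or more. With only these 2 groups in the fit, 0 of the 5 genes passed, beside 2.59% of all genes. The Igf1r call was close to the threshold. It was kept in 27 of 38 fits that each left out 1 library, with adjusted p from 0.0137 to 0.114, and it was lost on log2(TPM + 1), where the difference was -0.15 (adjusted p = 0.269 by limma). Libraries whose omission ended it were non_failing V2502, V2503, V2504, V2509 and V2510, HFpEF+Veh V2523, V2526, V2528, V2529 and V2530, and HFpEF+TYA-018 V2548. Without V2523 and V2532 it was -0.27 (adjusted p = 0.0263 by edgeR). Markers of several cell types differed between the same groups. Of 6 cardiomyocyte markers 3 (Myl2, Tnni3 and Tnnt2) fell, and their summed level was 29391 to 38746 CPM in non_failing and 24977 to 31239 CPM in HFpEF+Veh. Of 6 fibroblast markers 2 (Lum and Pdgfra) rose, with sums of 969 to 1541 and 926 to 1965 CPM, and of 6 pericyte or smooth muscle markers 2 (Abcc9 and Rgs5) fell, with sums of 757 to 987 and 594 to 794 CPM. Both tested markers of fast skeletal muscle (Myl1 and Tnnt3, of 6 listed) rose, and the sum of the 6 was 14.6 to 32.4 CPM in non_failing and 32.7 to 162 CPM in HFpEF+Veh. All 5 erythrocyte markers were higher at an unadjusted p under 0.05 and 0 passed. Their part in the Igf1r difference was not tested.

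The remaining comparisons share the drug libraries that chose the genes, and nothing is read from their tests. Between the drugs edgeR called 0 of the 5 genes and 0 of all genes (0%), with 1821 genes (13.2%) at an unadjusted p under 0.05. The adjusted p of the 5 genes lay between 0.0765 and 0.0980. Other tools called 185 genes (DESeq2), 590 (edgeR with 1 surrogate variable), 5 (edgeR with transcript length as offset) and 0 (limma) of all genes, among them all 5 members in DESeq2 and in the surrogate variable fit. No marker of any cell type passed between the drugs in edgeR, but some differed at an unadjusted p under 0.05. With TYA-018, 3 of 5 erythrocyte markers were higher, with sums of 2576 to 12964 CPM against 2392 to 8471 CPM with empagliflozin. Of 6 cardiomyocyte markers 2 were higher (median of the 6 log2 fold changes 0.15), with sums of 26422 to 34482 against 19761 to 31335 CPM. Of 6 fibroblast markers 1 was higher and 1 lower, and 1 of 6 was lower among both the endothelial and the macrophage markers. Among 6 pericyte or smooth muscle markers 1 was higher. Their part in the differences of the 5 genes was not tested.

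Against vehicle, 0 of the 5 passed with TYA-018, where 266 genes (1.93%) did. At an unadjusted p under 0.05 were 3 of the 5 (Ptch1, Igf1r and Ric1), beside 17.5% of all genes. With empagliflozin 0 of the 5 passed against vehicle, where 117 genes (0.85%) did, and 2 (Wdr89 and Rps19bp1) were at an unadjusted p under 0.05, beside 10% of all genes. Against non_failing, Ptch1 (-0.27, SE 0.07), Igf1r (-0.46, SE 0.07), Ric1 (-0.48, SE 0.08) and Rps19bp1 (0.28, SE 0.08) passed with TYA-018, where 1017 genes (7.39%) did. Leaving out non_failing V2509 reduced these 4 to 2. With empagliflozin 0 of the 5 passed against non_failing, where 888 genes (6.45%) did. At an unadjusted p under 0.05 were 3 (Igf1r, Ric1 and Wdr89), beside 19.6% of all genes, and Wdr89 differed most (-0.58, SE 0.20).

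**Figure D3:**
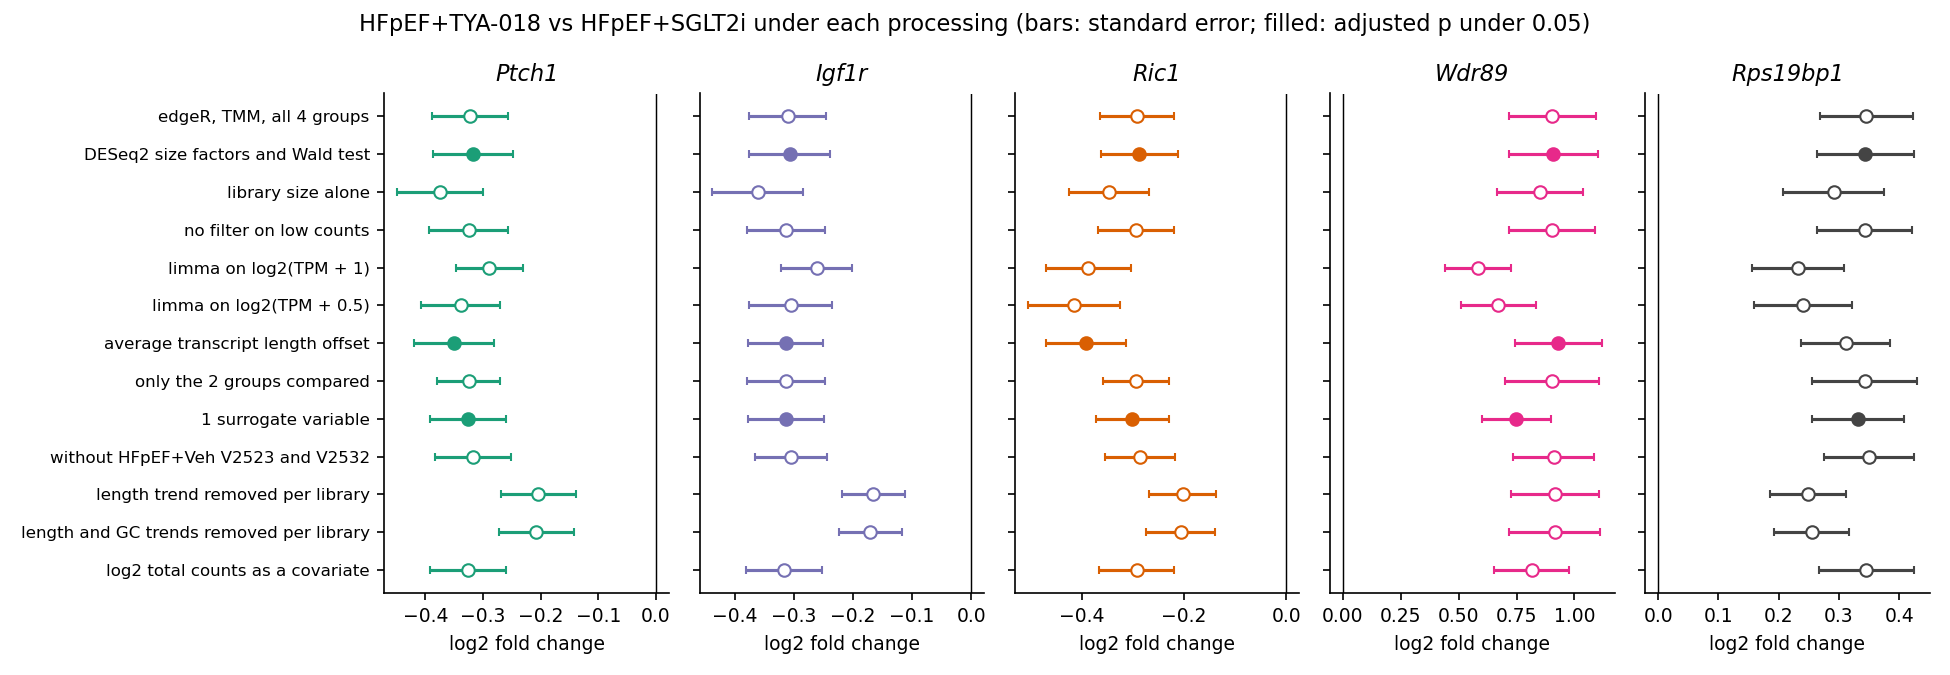
Log2 fold change between HFpEF+TYA-018 and HFpEF+SGLT2i (horizontal axis, a separate scale for each gene) under each processing, with bars for the standard error and filled points for an adjusted p under 0.05. The sign held in each processing shown, and removal of the length trend brought Ptch1 to -0.20 and Igf1r to -0.17.

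Gene length moved with the difference between the drugs. Over 13765 genes the log2 fold change of TYA-018 against empagliflozin fell with effective length at a Spearman correlation of -0.39, which is across genes and not across replicates. With the tested genes divided into 10 bins of equal number by length, the median was 0.14 in bin 1 (shortest) and -0.11 in bin 10 (longest). The members sit at both ends of this trend. Igf1r (mean effective length 8178 bases) and Ptch1 (4916) were in bin 10, Ric1 (3633) in bin 9, Wdr89 (1854) in bin 5 and Rps19bp1 (692) in bin 1. With the trend removed in each library, the differences were -0.20 (SE 0.07) in Ptch1, -0.17 (SE 0.05) in Igf1r, -0.20 (SE 0.07) in Ric1, 0.92 (SE 0.19) in Wdr89 and 0.25 (SE 0.06) in Rps19bp1. Against vehicle, the TYA-018 differences were then -0.09 in Ptch1, -0.05 in Igf1r and -0.17 in Ric1. Between HFpEF+Veh and non_failing the length trend was weak (Spearman correlation 0.045), so its removal could take little from the Igf1r difference. That difference was then -0.29 (adjusted p = 0.00412 by edgeR), from which nothing is read. The GC percent of the transcripts moved more with this comparison (Spearman correlation 0.20). With length and GC trends removed, 1 of the 5 genes passed there, beside 3.44% of all genes.

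**Figure D4:**
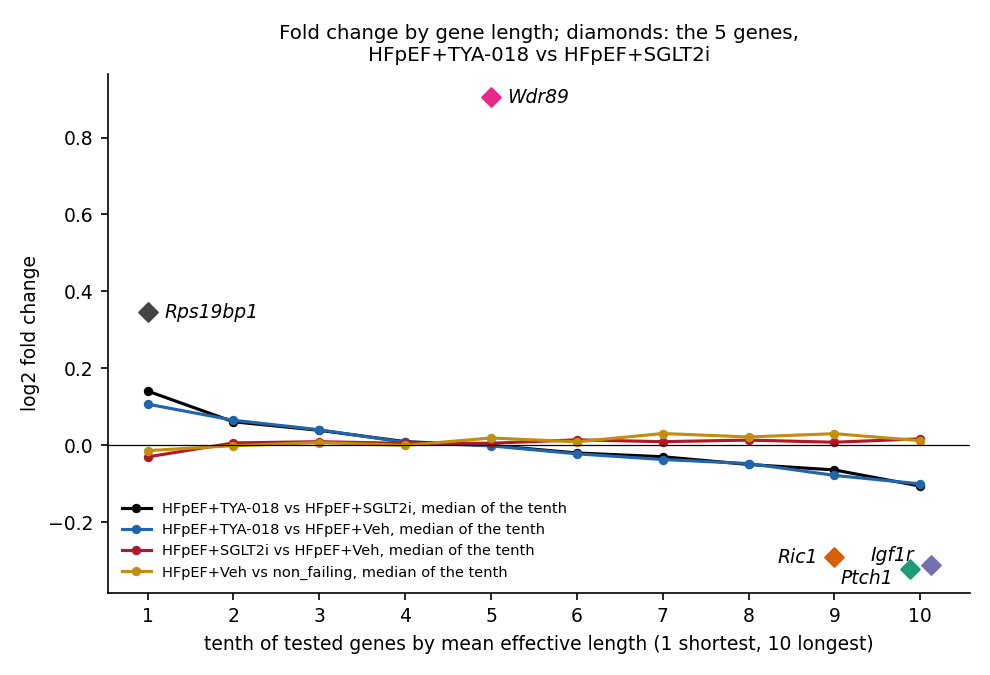
Median log2 fold change (vertical axis) of all tested genes in each of 10 bins by mean effective length (horizontal axis), 1 line for each of 4 comparisons, with diamonds for the 5 genes in HFpEF+TYA-018 against HFpEF+SGLT2i. The line for TYA-018 against empagliflozin fell from 0.14 to -0.11.

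A length index of each library gives the same trend per mouse: the median log2 deviation of the genes of bin 10 minus that of bin 1. Ptch1, Igf1r and Rps19bp1 belong to these bins of 1377 genes each. It was -0.15 ± 0.18 (SD, n = 11) with TYA-018, 0.10 ± 0.12 (n = 11) with empagliflozin, 0.05 ± 0.17 (n = 8) with vehicle and 0.02 ± 0.16 (n = 8) in non_failing. TYA-018 differed from empagliflozin by -0.25 (two-sided permutation test, p = 0.0003, adjusted p = 0.0018 over 6 comparisons) and from vehicle by -0.20 (two-sided exact permutation test, p = 0.00976, adjusted p = 0.0293). The other 4 comparisons had adjusted p of 0.0848 or more. The index was built on the trend seen in these same libraries, and the adjustment does not cover that choice. In the TYA-018 group V2555 stood apart at -0.64, with the next lowest library at -0.22, and this mouse had the lowest TPM of Igf1r (1.06) and Ric1 (2.62) and the highest of Rps19bp1 (10.5). Without it the index differed between the drugs by -0.20 (two-sided permutation test, p = 0.00048), and the fitted differences were -0.29 in Igf1r, -0.27 in Ric1 and 0.30 in Rps19bp1. The part of the length trend in the differences of the 5 genes was not tested beyond its removal above.

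Effective length depends on which transcripts carry the reads of a gene and on the fragment lengths and biases of a library, and it was centred per library here. The choice was made on read counts, but effective length comes from the same libraries and enters TPM, so it is not an independent readout. With limma on log2 effective length, 0 of the 5 genes passed between the drugs, where 356 genes (2.59%) did. Ric1 had the largest difference of the 5 (0.10, SE 0.04, adjusted p = 0.0983 by limma). Against vehicle 0 of the 5 passed with TYA-018, where 181 genes (1.31%) did. At an unadjusted p under 0.05 were 3 (Ric1, Wdr89 and Rps19bp1) between the drugs, beside 22.7% of all genes, and 2 (Wdr89 and Rps19bp1) between TYA-018 and vehicle, beside 21.7%. Without V2523, Wdr89 (-0.04, adjusted p = 0.0273 by limma) and Rps19bp1 (0.05, adjusted p = 0.0474 by limma) passed between TYA-018 and vehicle, where 1313 genes (9.54%) did.

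Ptch1, Igf1r and Ric1 varied together over the 38 libraries, which share depth and the length trend. The Pearson r of log2 CPM was 0.68 between Ptch1 and Ric1, 0.70 between Igf1r and Ric1 and 0.60 between Ptch1 and Igf1r. After removal of the group means it was 0.51, 0.35 and 0.33. Rps19bp1 ran against all 3, with r of -0.57, -0.62 and -0.61 to Ptch1, Igf1r and Ric1, and its r with Wdr89 was 0.40, or 0.10 within groups.

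Among 11121 other genes with an average log2 CPM of at least 1, those with the highest r over the 38 libraries were Wasl (0.71, or 0.69 within groups), Ric1 (0.68, or 0.51) and Trim56 (0.66, or 0.45) for Ptch1. For Igf1r they were Hcfc1 (0.73, or 0.57), Map4k5 (0.70, or 0.55) and Ric1 (0.70, or 0.35). The members were chosen for a group difference, which sets part of the r between them. For Ric1 they were Shroom4 (0.78, or 0.73), Mysm1 (0.78, or 0.64) and Myo10 (0.75, or 0.55). Wdr89 had the highest of these values, with Fam221b (0.87, or 0.83), Rps2-ps10 (0.81, or 0.73) and Nfia (0.78, or 0.71), and Fam221b differed between the drugs by 0.92 where Wdr89 differed by 0.90. For Rps19bp1 they were Gm5617 (0.77, or 0.73), 1810009A15Rik (0.76, or 0.69) and Cox8a (0.74, or 0.74), the last encoding a subunit of cytochrome c oxidase.

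Of 35 listed genes of the Hedgehog pathway without Ptch1, 30 were tested, and 0 passed between the drugs, between TYA-018 and vehicle, or between empagliflozin and vehicle, beside 0%, 1.93% and 0.85% of all genes. At an unadjusted p under 0.05 were 1 higher and 4 lower, 0 and 1, and 1 and 4 in these comparisons, beside 13.2%, 17.5% and 10% of all genes. Between TYA-018 and vehicle 73.3% of the 30 were below 0 (median -0.12), beside 51.8% of all genes (median -0.01). Between empagliflozin and vehicle 63.3% were below 0 (median -0.037), beside 48.4% of all genes (median 0.006). Between the drugs 63.3% were below 0 (median -0.015), beside 51.6% of all genes (median -0.005). The part of the length trend in these shares was not tested. Against non_failing, 0 passed higher and 1 lower with TYA-018, and 1 higher and 2 lower with empagliflozin, beside 7.39% and 6.45% of all genes. In HFpEF+Veh against non_failing, 1 of the 30 passed higher and 0 lower, beside 3.15% of all genes. This was Gli2, a transcription factor of the pathway, which rose by 0.75 (SE 0.18, adjusted p = 0.0124 by edgeR). Its level was 0.199 ± 0.039 TPM in non_failing (SD, n = 8) and 0.359 ± 0.102 in HFpEF+Veh (n = 8), and 6 of 8 vehicle libraries were above every non_failing library. Without V2523 and V2532 the Gli2 difference was 0.93 (adjusted p = 0.000583 by edgeR). Cell type markers, fibroblast markers among them, differed between these groups as given above, and their part in the Gli2 difference was not tested. Smo, which Ptch1 restrains, was at 3.00 ± 0.34 TPM with TYA-018 and 3.20 ± 0.46 with empagliflozin (n = 11 each), a log2 difference of -0.07 (SE 0.08). Gli1, a target of the pathway like Ptch1, differed between the drugs by -0.11 (SE 0.24). The ligand Dhh differed by -0.11 (SE 0.25), and the ligands Shh and Ihh did not pass the filter on low counts.

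In the IGF list without Igf1r, 45 of 47 genes were tested, and 0 passed between the drugs, beside 0% of all genes. At an unadjusted p under 0.05 were 0 higher and 4 lower, beside 13.2% of all genes. Against non_failing, 2 passed higher and 3 lower with TYA-018, and 2 higher and 2 lower with empagliflozin, beside 7.39% and 6.45% of all genes. Against vehicle, 1 passed with either drug, lower in both, beside 1.93% of all genes with TYA-018 and 0.85% with empagliflozin. Igfbp3, a binding protein that carries IGFs, fell by 0.64 log2 units with TYA-018 against vehicle (SE 0.15, adjusted p = 0.0199 by edgeR). Its level was 14.6 ± 1.98 TPM in non_failing (SD, n = 8), 12.4 ± 5.32 in HFpEF+Veh (n = 8), 7.04 ± 0.703 with TYA-018 (n = 11) and 8.50 ± 2.59 with empagliflozin (n = 11). Of the TYA-018 libraries 8 of 11 were below every vehicle library, and the call held without V2523 and V2532 (adjusted p = 0.0278 by edgeR). It was lost without HFpEF+Veh V2530, where the difference was -0.44 (adjusted p = 0.0921 by edgeR). Between these groups 4 of 6 cardiomyocyte markers were higher (median 0.18) and 2 of 6 fibroblast markers lower (median -0.26) with TYA-018 at an unadjusted p under 0.05, with 0 passing, and their part in the Igfbp3 difference was not tested. Igfbp2 passed between empagliflozin and vehicle (-3.11, adjusted p = 0.0433 by edgeR), but without V2523 the difference was 0.03 (adjusted p = 0.987 by edgeR). Between TYA-018 and non_failing, Igfbp2 was at -3.18 without V2523 (adjusted p = 1.2e-05 by edgeR). With all libraries, all 7 hepatocyte markers passed lower between these 2 groups. The part of liver transcripts in the IGF calls against non_failing was not tested. The ligands Igf1 (0.13, SE 0.14) and Igf2 (-0.19, SE 0.15) and the receptors Insr (-0.12, SE 0.08) and Igf2r (-0.15, SE 0.07) did not pass between the drugs. In HFpEF+Veh against non_failing, where Igf1r fell, Insr was at -0.12 (SE 0.10) and Igf2r at -0.05 (SE 0.08).

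**Figure D5:**
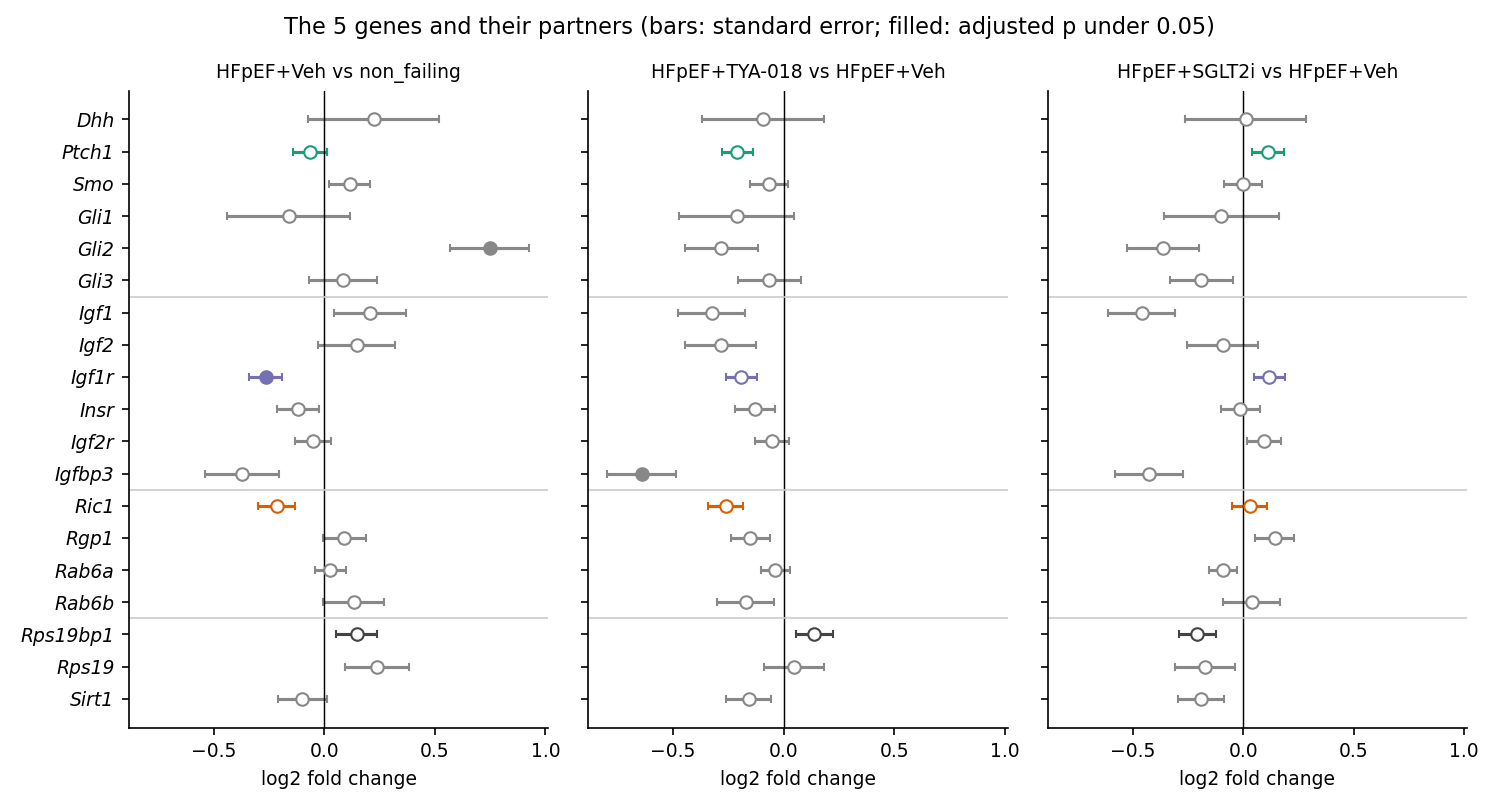
Log2 fold change (horizontal axis) of the members other than Wdr89 and of genes of their pathways in 3 comparisons, with bars for the standard error and filled points for an adjusted p under 0.05. The filled points are Gli2 (0.75) and Igf1r (-0.26) in HFpEF+Veh against non_failing and Igfbp3 (-0.64) in HFpEF+TYA-018 against HFpEF+Veh.

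Rgp1, the partner of Ric1 in the Rab6 exchange factor, was at 6.23 ± 1.17 TPM with TYA-018 and 8.29 ± 1.03 with empagliflozin (SD, n = 11 each). Its log2 difference between the drugs was -0.29 (SE 0.08), which did not pass (adjusted p = 0.103 by edgeR) and was close to the -0.29 of Ric1. In TPM, 9 of 11 TYA-018 libraries were below every empagliflozin library. Its ranges in CPM and its difference with the length trend removed were not examined. Against vehicle, Rgp1 was at -0.15 (SE 0.09) with TYA-018 and at 0.14 (SE 0.09) with empagliflozin, and neither passed. Their substrate Rab6a differed between the drugs by 0.05 (SE 0.06) and Rab6b by -0.21 (SE 0.12). All 27 genes of the list of Rab6 and Golgi tether genes were tested, and 0 passed between the drugs, against vehicle with either drug, or between HFpEF+Veh and non_failing. Of all genes 0%, 1.93%, 0.85% and 3.15% passed (vehicle with TYA-018 before empagliflozin). At an unadjusted p under 0.05 were 1 higher and 1 lower, 1 and 0, 0 and 1, and 0 and 2 in that order. Of all genes 13.2%, 17.5%, 10% and 15.9% were at such a p. Against non_failing, 2 passed higher and 0 lower with TYA-018, and 1 higher and 1 lower with empagliflozin, beside 7.39% and 6.45% of all genes.

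The partners of Rps19bp1 did not pass between the drugs either. Rps19 was at 238 ± 64.6 TPM with TYA-018 and 219 ± 28.4 with empagliflozin (SD, n = 11 each), a log2 difference of 0.22 (SE 0.12). Sirt1 differed by 0.03 (SE 0.09). All 40 genes of the small subunit processome, the particle that assembles the small ribosomal subunit, were tested, and 0 passed in the same 4 comparisons (2 higher and 1 lower, 2 and 2, 0 and 1, and 0 and 3 at an unadjusted p under 0.05). The shares of all genes are those given beside the Rab6 list. Against non_failing, 1 passed higher and 2 lower with TYA-018, and 0 with empagliflozin, beside 7.39% and 6.45% of all genes. At an unadjusted p under 0.05 were 2 higher and 7 lower, and 0 and 7, beside 22% and 19.6% of all genes. The comparisons with non_failing share those 8 libraries. The share of the 40 below 0 was 75% in HFpEF+Veh, 67.5% with TYA-018 and 75% with empagliflozin, with medians of -0.06, -0.07 and -0.07, beside 47.7%, 49.0% and 48.7% of all genes.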

How the data were processed

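Left ventricular polyA RNA of 38 mice was sequenced with a stranded kit, 1 library per mouse. The deposited tables hold 3 measures for 29564 genes, 7693 of them without a count in any library. The authors made expected counts, TPM and effective lengths (a score in bases) with salmon and tximport on GENCODE transcripts of GRCm38, while the labels name Salmon 1.6.0 and hg38. Groups were taken from the sample titles. No column was left unmapped. Expected counts were rounded and filtered (filterByExpr, minimum count 10), and edgeR 4.0.16 (R 4.3.3) fitted all 4 groups with TMM scaling and the quasi-likelihood test, with Benjamini-Hochberg adjustment over 13765 genes and calls at 0.05. This differs from the authors' work on log2(TPM + 1), which was an alternative (limma 3.58.1, pseudocount 1 or 0.5, genes with a count in 90% of libraries). Other alternatives were DESeq2 1.42.0, library size alone, no filter, a length offset, the compared groups only, 1 surrogate variable (sva 3.50.0) and libraries left out. Log2 effective length was centred per library and tested with limma. Permutation tests used scipy 1.17.1. The edgeR and limma steps were tested on simulated data.

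The members and the pathway and marker lists were chosen with earlier results of these data known. Named genes are the members, their ligands, receptors and partners, list genes called in any comparison but those of a drug with non_failing, the 3 genes most like each member and the neighbours in rank (those other than the next after the members were added after their values were seen). The values of 1 further gene that the rule covers are not reported here. Promoters come from RefSeq (GRCm38.p6) and matched for 5 of the 5 genes. The labels give each mouse a number and no batch, so p-values measure the spread between these mice.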

Additional observations from a re-analysis of the deposited data

Results flagged for a closer look

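In HFpEF+Veh, library V2532 lay apart from the other 7 in 4 of 11 sets of values examined, and none did in the 11 sets of non_failing. Chance alone gives such a gap in about 1 in 20 sets, and the sets are not independent. Its effective length was the highest of the group in Ptch1 (5480 bases), Igf1r (9140 bases) and Wdr89 (2130 bases), and its length index was 0.42. The groups of 11 mice were not examined in this way.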

How the results depend on the processing

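Alternatives with the length trend, the length and GC trends or depth in the model were chosen after seeing the data. No paired analysis was possible because mouse numbers differ in every group. The genes were chosen by the difference between the drugs, so nothing is read from their calls in comparisons that use the drug libraries. The shares of all genes beside those calls are no measure of enrichment. Of the 5 genes, those called between the drugs (0) were 5 with DESeq2, 4 with the length offset and 5 with a surrogate variable, beside 1.34%, 0.0363% and 4.29% of all genes (0 to 3 with 1 library left out, 3 without HFpEF+TYA-018 V2570). For TYA-018 against vehicle (0) they were 1, 3, 1, 1 and 1 with DESeq2, library size alone, limma on log2(TPM + 0.5), the length offset and a surrogate variable, beside 2.92%, 7.96%, 0.309%, 1.39% and 7.42%. For empagliflozin against vehicle (0) they were 1 with library size alone and 1 without a filter, beside 1.08% and 2.09% (0 to 1 with 1 library left out, Wdr89 at -0.83 and adjusted p = 0.0181 by edgeR without HFpEF+Veh V2532). For HFpEF+Veh against non_failing (1) they were 0 with library size alone, without a filter, with limma on either pseudocount and with the compared groups only, beside 1.91% to 3.47% (0 to 1). For TYA-018 against non_failing (4) they were 2 with limma on either pseudocount and 2 with length and GC removed, beside 4.40%, 4.41% and 6.47% (2 to 4). For empagliflozin against non_failing (0) they were 1 with the compared groups only, a surrogate variable or depth, beside 6.08%, 12.8% and 8.17% (0 with 1 library left out).

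Genes called in at least 1 of 6 comparisons were 5 in the Hedgehog list (3 with limma, 8 with a surrogate variable, 9 without V2523 and V2532, 3 with length and GC removed, 3 to 6 with 1 library left out). They were 5 in the IGF list (12 with library size alone, 5 to 6). They were 3 in the Rab6 and Golgi list (1 without a filter, 0 with limma, 1 with the length offset, 1 with the compared groups only, 8 with a surrogate variable, 0 to 3). They were 3 in the processome list (5 with DESeq2, 5 with library size alone, 0 with limma, 1 with the length offset, 9 with a surrogate variable, 6 without V2523 and V2532, 1 with length and GC removed, 1 to 4). Effective lengths of 2 members passed between TYA-018 and vehicle without V2523, in place of 0, beside 9.54% of all genes in place of 1.31%.

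Log2 fold changes that turned sign were small. Ric1 between empagliflozin and vehicle (0.03) was -0.043 with library size alone and -0.0033 to 0.079 with 1 library left out (lowest without V2523). Ptch1 between HFpEF+Veh and non_failing (-0.06) was 0.0033 with library size alone, 0.015 and 0.020 with limma (pseudocount 1 and 0.5) and -0.11 to 0.011 with 1 library left out (highest without non_failing V2509). Rps19bp1 between TYA-018 and vehicle (0.14) was -0.026 and -0.027 with limma, and against non_failing with empagliflozin (-0.06) it was 0.0061 with the length trend removed. Wdr89 between HFpEF+Veh and non_failing (0.14) was -0.058 with a surrogate variable. The cause of these changes was not tested. Library size alone moved the median of all genes by -0.13 for TYA-018 against vehicle, where calls became 25 higher and 1071 lower in place of 115 and 151. Depth limits Wdr89 most, with 58.6 to 299 estimated counts per library.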
